A study of Mus musculus with 6 samples.

Results

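NADPH oxidases pass electrons from NADPH across a membrane to oxygen and so make superoxide or hydrogen peroxide. The NOX1 and DUOX2 systems are typical of colon epithelium. Their 7 genes described here are Nox1, Noxo1, Noxa1, Cyba, Rac1, Duox2 and Duoxa2, out of 19936 genes measured on the arrays. The genes were chosen by name, with earlier results of these data known. Each was read by 1 probe set that the platform annotation assigns to that gene alone. Nox1 and Duox2 fell in Sel1L knockout epithelium, by 0.46 ± 0.076 and 0.44 ± 0.081 (SE, 3 arrays per genotype) on the log2 scale. Both passed limma at an adjusted p under 0.05 with all 6 arrays, but neither did with any 1 array left out. The levels of Noxo1, Noxa1 and Rac1 overlapped between the genotypes.

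RNA of isolated colon epithelium was hybridised to 6 arrays, 3 from wild type and 3 from Sel1L knockout mice, all male, 8 weeks old and of strain C57BL/6J. Sel1L is the adaptor of a ubiquitin ligase complex that removes misfolded proteins from the endoplasmic reticulum, and the series asks which proteins that complex degrades. Knockout mice carried Sel1l with a loxP-flanked exon 6 and a Cre transgene under the villin-1 promoter, which is active in epithelial cells of the intestine. The floxed allele had been passed through a FLPe deleter line that removes the lacZ-neo cassette. The labels name the controls wild type and do not say whether they carried the floxed allele or Cre, nor whether each array stands for 1 mouse, so the tests measure the spread between these arrays, which may be technical.

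NOX1 is the catalytic subunit of a superoxide-producing oxidase of colon epithelial cells. It sits in the membrane with p22phox, the product of Cyba, and is switched on by the organizer NOXO1, the activator NOXA1 and the small GTPase RAC1. DUOX2 makes hydrogen peroxide at the apical surface, where it serves host defence against microbes, and it needs the maturation factor DUOXA2 to leave the endoplasmic reticulum. Duox2 and Duoxa2 lie next to each other head to head, and the paralogs Duoxa1 and Duox1 follow them on the same chromosome.

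The sequences below lie upstream of the 4 genes whose knockout arrays all lay below all wild type arrays. They are taken from RefSeq, build GRCm38.p6, which holds an upstream window for 6 of the 7 genes, Rac1 not among them. Nox1 and Cyba are shown as the 250 bases before the start site of the table's window, on the minus strand, at chrX:134111855-134112104 and chr8:122432941-122433190. For the Duox2-Duoxa2 pair the 159 bases between the outermost annotated starts of both genes are shown on the plus strand, reading towards Duoxa2, at chr2:122298741-122298899. The Nox1 window lies inside the annotated Nox1 gene, which also has a start farther upstream. Capitals mark matches to the motifs named in the next paragraph.
Nox1: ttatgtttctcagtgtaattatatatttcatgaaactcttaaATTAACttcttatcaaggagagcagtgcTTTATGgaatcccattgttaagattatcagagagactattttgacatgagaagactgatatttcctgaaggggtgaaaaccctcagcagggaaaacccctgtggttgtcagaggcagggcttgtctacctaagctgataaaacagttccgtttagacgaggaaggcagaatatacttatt
Cyba: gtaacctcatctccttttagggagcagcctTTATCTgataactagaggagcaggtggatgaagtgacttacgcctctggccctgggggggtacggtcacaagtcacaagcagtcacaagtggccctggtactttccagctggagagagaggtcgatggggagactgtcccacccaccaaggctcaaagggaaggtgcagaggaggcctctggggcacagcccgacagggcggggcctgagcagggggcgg
Duox2-Duoxa2: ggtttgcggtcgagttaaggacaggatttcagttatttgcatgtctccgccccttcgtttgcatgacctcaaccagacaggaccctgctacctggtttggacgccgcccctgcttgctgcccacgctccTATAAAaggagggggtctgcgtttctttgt

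Matches to 8 short motifs were looked for on both strands of the 250 upstream bases of all 32851 windows in the table. The Nox1 window held 1 HNF1 site core (GTTAAT, in 6.43% of all windows), printed as ATTAAC, and 1 CDX core (TTTATG, in 10.8%). The Cyba window held 1 GATA site (AGATAA, in 9.99%), printed as TTATCT, and the Noxa1 window held 1 as well. Only this form of the GATA site was searched, so forms such as TGATAA, which the Nox1 and Cyba stretches hold, are not marked. The Duoxa2 window held a TATA box (TATAAA, in 12.4%), which begins 30 bases before the start site. The Duox2 window, which is not printed, held 1 HNF1 site core and 1 CCAAT box (CCAAT, in 33.8%), and the Noxa1 window also held a CCAAT box. The Duox2 window held no TATA box, so it does not span the printed bases. It belongs to a start inside the annotated Duox2 gene, not to the outermost one. None of the 6 windows held a GAS element (TTCNNNGAA, in 7.02%), a UPRE core (TGACGTG, in 1.65%) or a CARE element (TGATGNAA, in 3.45%). These are letter matches, not tested binding sites, and the Noxo1 window held none of the 8.

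The 6 arrays were alike in distribution, with medians of the deposited log2 values between 6.32 and 6.36, and correlations between arrays across genes ran from 0.993 to 0.997. Each of the 7 genes was read above these medians on all 6 arrays. The targeted gene, Sel1l, was lower in the knockout by 0.74 ± 0.11 (SE) on the log2 scale (limma adjusted p = 0.018). This call ended without wild type array 1 or 2 or knockout array 1 or 3, with adjusted p up to 0.087. The probe set was not placed relative to the deleted exon, so how complete the deletion was cannot be read from it. Markers of epithelium were bright, all 9 above the median. Of 13 phagocyte markers 10 lay below it, as did 6 of 7 lymphocyte markers and 4 of 8 stromal markers.

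Among the 7 oxidase genes 2 fell and none rose at an adjusted p under 0.05. Of all 19936 genes, 1.63% were called in either direction, 0.712% as lower in the knockout and 0.918% as higher. Every knockout array lay below every wild type array in 4 of the 7 genes, Nox1, Cyba, Duox2 and Duoxa2, which was so for 7.98% of all genes. The median change of the 7 genes was -0.20, and that of all genes was 0.019. The 7 genes were chosen with earlier results of these data known, and their values were not tested against those of all genes. The genes differed among themselves, with Nox1, Duox2 and Duoxa2 each near -0.4, Cyba near -0.2, and Noxo1 and Rac1 close to 0.

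**Figure D1:**
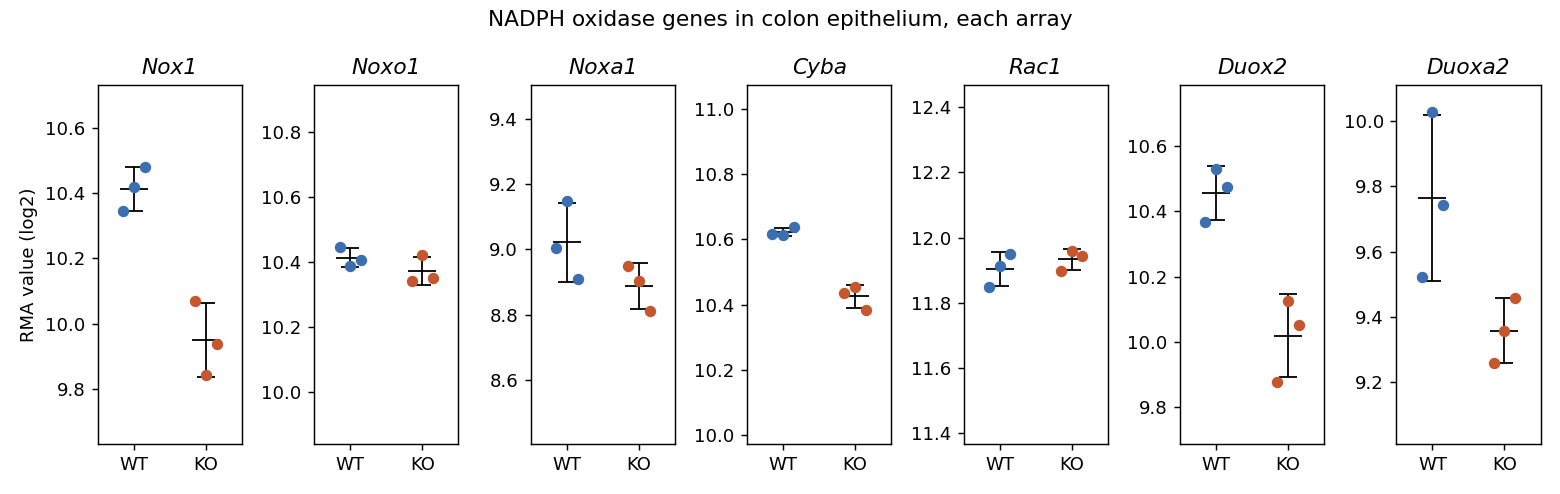
Deposited RMA values (log2, vertical axis) of the 7 genes on each array, with wild type (WT, blue) on the left and Sel1L knockout (KO, orange) on the right of each panel. Points are arrays, and bars are the mean and SD of 3 arrays. Each panel spans the same range of log2 units around its own mean. Knockout points lie below all wild type points for Nox1, Cyba, Duox2 and Duoxa2 and overlap them for Noxo1, Noxa1 and Rac1.

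Nox1, the catalytic subunit, read 10.34, 10.42 and 10.48 on the wild type arrays and 10.07, 9.84 and 9.94 on the knockout arrays. The lowest wild type array was 0.27 above the highest knockout array, so the groups did not overlap. The means were 10.41 ± 0.068 and 9.95 ± 0.11 (SD, n = 3 each), and Nox1 fell by 0.46 ± 0.076 (SE) on the log2 scale (limma adjusted p = 0.025). The transcript thus fell by 27.5% (95% interval of the log2 change -0.64 to -0.29), and 156 of the 19936 genes had a larger fall. The exact two-sided permutation p was 0.1, the smallest that 3 arrays against 3 can give. With any 1 of the 6 arrays left out Nox1 stayed lower, by 0.41 to 0.52, but was no longer called, with adjusted p from 0.052 (without knockout array 1) to 0.093 (without wild type array 2).

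Cyba encodes p22phox, the membrane partner that NOX1 needs to be stable and active. It read 10.62, 10.61 and 10.64 in wild type and 10.44, 10.45 and 10.38 in the knockout. The groups did not overlap, and the arrays within each genotype lay close together, with SDs of 0.013 and 0.035. The difference was -0.20 ± 0.056 (SE) and did not pass over all genes (limma adjusted p = 0.16, unadjusted p = 0.0073). It passed when the prior variance was allowed to follow the intensity (adjusted p = 0.038), a setting under which 3.08% of all genes were called.

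The cytosolic partners of NOX1 did not pass the test. Noxo1, the organizer that tethers the complex to the membrane, read 10.45, 10.39 and 10.41 in wild type and 10.34, 10.42 and 10.35 in the knockout. The groups overlapped, and the difference was -0.042 ± 0.058 (SE, limma adjusted p = 0.82, 95% interval -0.17 to 0.091). Noxa1, the activator, read 9.01, 9.15 and 8.91 against 8.95, 8.90 and 8.81. These groups also overlapped, with a difference of -0.13 ± 0.078 (limma adjusted p = 0.52) and an interval of -0.31 to 0.043. Rac1, the GTPase, read 11.85, 11.91 and 11.95 against 11.90, 11.96 and 11.94, a difference of 0.030 ± 0.059 (limma adjusted p = 0.89). Its interval of -0.11 to 0.17 does not reach the interval of Nox1, nor does that of Noxo1, whereas that of Noxa1 overlaps it.

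In the DUOX2 system both transcripts were lower in every knockout array. Duox2, which encodes the apical hydrogen peroxide source, read 10.37, 10.53 and 10.47 in wild type and 9.88, 10.13 and 10.05 in the knockout. The groups stood 0.24 apart at their nearest arrays. The means were 10.46 ± 0.084 and 10.02 ± 0.13 (SD, n = 3 each), and Duox2 fell by 0.44 ± 0.081 (SE) on the log2 scale (limma adjusted p = 0.041). The transcript thus fell by 26.2%. Here too the exact permutation p was 0.1, and the call ended with any 1 array left out. The change then ran from -0.49 to -0.37 and the adjusted p from 0.068 (without knockout array 2) to 0.14 (without wild type array 2).

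Duoxa2, the maturation factor, read 9.52, 10.03 and 9.74 in wild type and 9.26, 9.36 and 9.46 in the knockout. The nearest arrays of the groups were 0.065 apart, and the wild type SD of 0.25 was the widest of the 7 genes. The difference was -0.41 ± 0.12 (SE), close in size to that of Duox2, and was not called (limma adjusted p = 0.18, unadjusted p = 0.0097). Without wild type array 2, its highest array, the difference was -0.27, and without wild type array 1 it was -0.53. In both Duox2 and Duoxa2, wild type array 1 was the lowest and wild type array 2 the highest of their genotype, and knockout array 1 was the lowest of its genotype. Nox1 shared the lowest wild type array, but its highest arrays were wild type array 3 and knockout array 1. Over 6 arrays such an order is a description only.

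**Figure D2:**
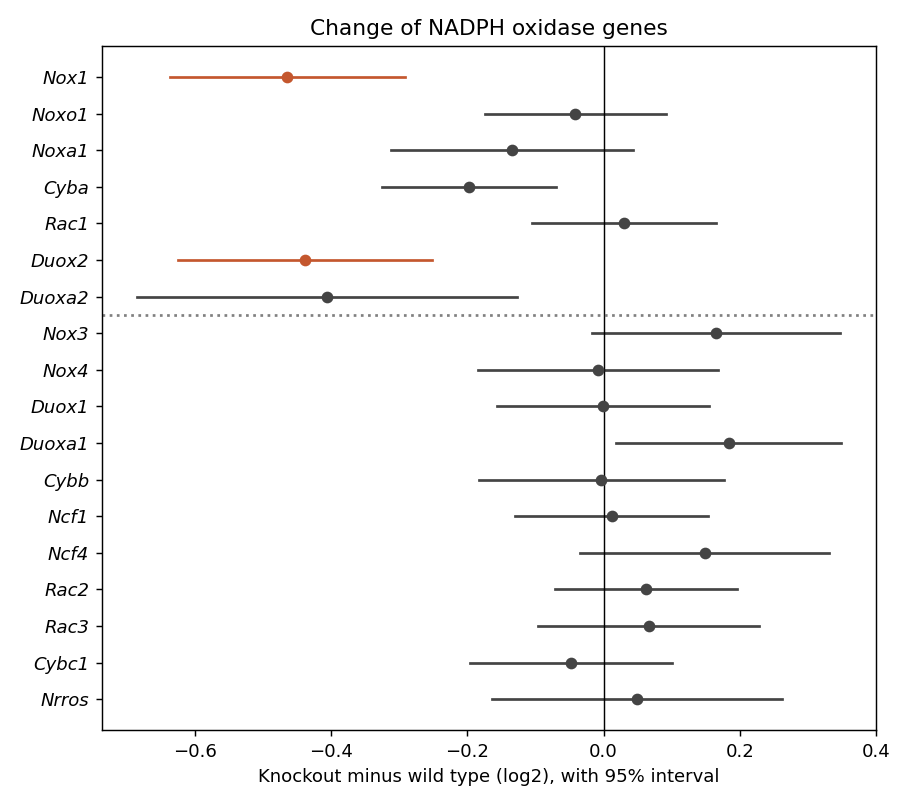
Change in the knockout relative to wild type (log2, horizontal axis) for the 7 genes, above the dotted line, and for 11 other NADPH oxidase genes, below it. Points are limma estimates from 3 arrays per genotype, lines are 95% intervals, and orange marks an adjusted p under 0.05. Nox1 and Duox2 are the only orange points, and the intervals of Cyba and Duoxa2 also lie below 0.

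Whether one gene of a system differed by genotype more than its partner was tested on differences taken within each array, over 6 pairs. Relative to Noxo1, Nox1 was 0.42 lower in the knockout than in wild type, and relative to Rac1 it was 0.49 lower (SEs of 0.10 and 0.085). Relative to Noxa1 and Cyba it was 0.33 and 0.27 lower (SEs of 0.11 and 0.079). In these 4 pairs every knockout array lay below every wild type array, and the exact two-sided permutation p was 0.1 each (0.15 adjusted over the 6 pairs). All 4 hold the same Nox1 values, whose groups did not overlap, so they are not separate results. How many other genes would also separate from Nox1 in this way was not counted. With 3 arrays against 3 this permutation test cannot give a smaller p.

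The shifts of Duox2 and Duoxa2 were not told apart. Their difference moved by -0.032 ± 0.11 (SE), with overlapping groups (exact permutation p = 0.9, adjusted p = 0.9 over the 6 pairs). Nox1 and Duox2, the catalytic subunits of the 2 systems, were not told apart either, at -0.025 ± 0.14 (SE, exact permutation p = 0.9, adjusted p = 0.9). The knockout arrays spread more widely in this last pair, from -0.24 to 0.24, since knockout array 1 was the highest for Nox1 and the lowest for Duox2.

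**Figure D3:**
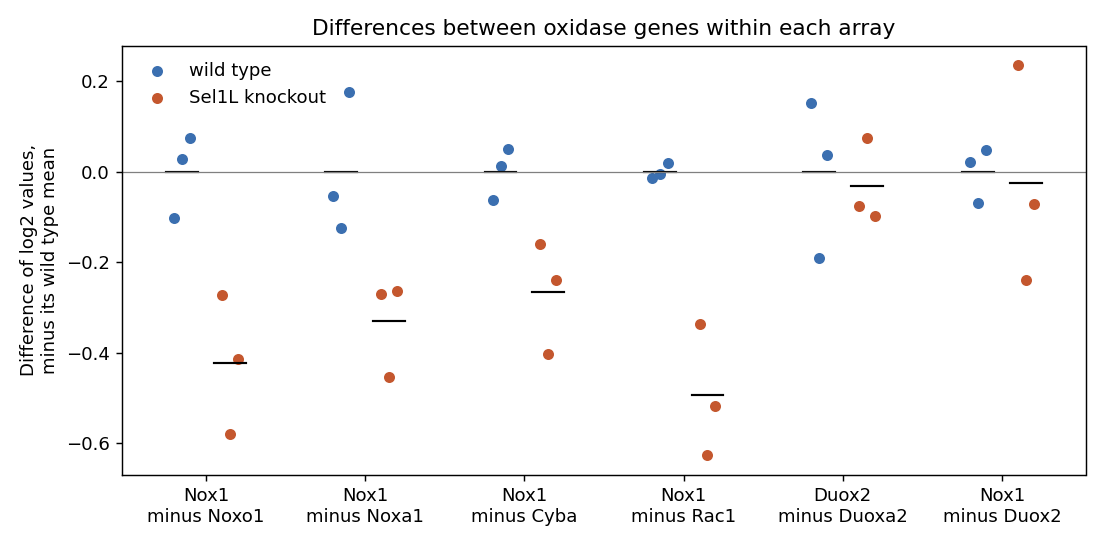
Difference between the log2 values of 2 genes on the same array, minus its wild type mean (vertical axis), for 6 pairs. Points are arrays, wild type in blue and Sel1L knockout in orange, and short lines are means. In the 4 pairs of Nox1 with its own partners the knockout points lie below all wild type points, at means of -0.27 to -0.49, and in the other 2 pairs the groups overlap.

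Other NADPH oxidase genes were mostly dim on these arrays. Of 12 listed, 11 were measured, and none was called by limma, with 1 at an unadjusted p under 0.05, against 13.3% of all genes. Their median change was 0.049. That gene was Duoxa1, the maturation factor paralog that neighbours Duoxa2. It read 5.90, 5.86 and 5.86 in wild type and 6.03, 6.19 and 5.96 in the knockout, a difference of 0.18 ± 0.072 (limma adjusted p = 0.31). The sign is opposite to that of Duoxa2, and its level is below the array median. Duox1, at the same locus, differed by -0.00081 ± 0.068 (limma adjusted p = 0.997). Cybb, the catalytic subunit of the phagocyte oxidase, read 4.47 to 4.70 in wild type and 4.49 to 4.64 in the knockout. It lay below the array median throughout, as did 8 of these 11 genes, and whether this hid changes was not tested. Duoxa1, Nox3 and Ncf4, all below the median, had every knockout array above every wild type array. None of the 11 had every knockout array below. How many of all genes were higher in this way was not counted.

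Genes that supply, control or use the products of these oxidases were also counted. For comparison, 13.3% of all genes had an unadjusted p under 0.05. Among 13 measured genes that control RAC proteins (exchange factors, GTPase-activating proteins and relatives), none was called and none had an unadjusted p under 0.05. The smallest p was that of Elmo1, part of a RAC exchange complex, at -0.22 ± 0.11 (limma adjusted p = 0.44). Of 4 genes that supply NADPH none was called, with 1 at an unadjusted p under 0.05. It was Me1, the cytosolic malic enzyme, which read 6.82, 6.81 and 7.45 in wild type and 7.94, 7.70 and 7.64 in the knockout. The groups did not overlap, and the difference was 0.73 ± 0.17 (adjusted p = 0.087). It was called without wild type array 3 (0.95, adjusted p = 0.0091).

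Of 14 measured genes that remove superoxide or peroxide, limma called none, and none had an unadjusted p under 0.05. The smallest p was that of Prdx4, the peroxiredoxin of the endoplasmic reticulum, at -0.22 ± 0.098 (adjusted p = 0.39). Heme peroxidases use hydrogen peroxide to oxidize halides and thiocyanate. None of 4 was called, with 1 at an unadjusted p under 0.05. This was Lpo, lactoperoxidase, which read 9.21, 9.11 and 9.05 in wild type and 9.63, 9.39 and 9.41 in the knockout. All 3 knockout arrays were above all wild type arrays, by a mean of 0.35 ± 0.082 (limma adjusted p = 0.092), the opposite sign to Duox2.

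Upstream of these oxidases lie microbial sensors and cytokine receptors, through which Duox2 and Nox1 are known to be induced. Of 17 measured, none was called, and the median change was -0.064. At an unadjusted p under 0.05, 4 were lower and 1 was higher, against 13.3% of all genes in either direction. The 4 lower were Tlr2 (-0.23), Ifngr1 (-0.21), Nod1 (-0.18) and Il13ra1 (-0.17), and the groups of Tlr2 overlapped. The higher one was Myd88, the adaptor of most Toll-like receptors, which had the smallest p, at 0.27 ± 0.062 (limma adjusted p = 0.090). Its wild type arrays read 9.01 to 9.10 and its knockout arrays 9.28 to 9.39. Of 7 intestinal transcription factor genes none was called, with 1 at an unadjusted p under 0.05. This was Cdx2, a homeobox factor that sets intestinal identity, at 0.28 ± 0.088 (adjusted p = 0.20).

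**Figure D4:**
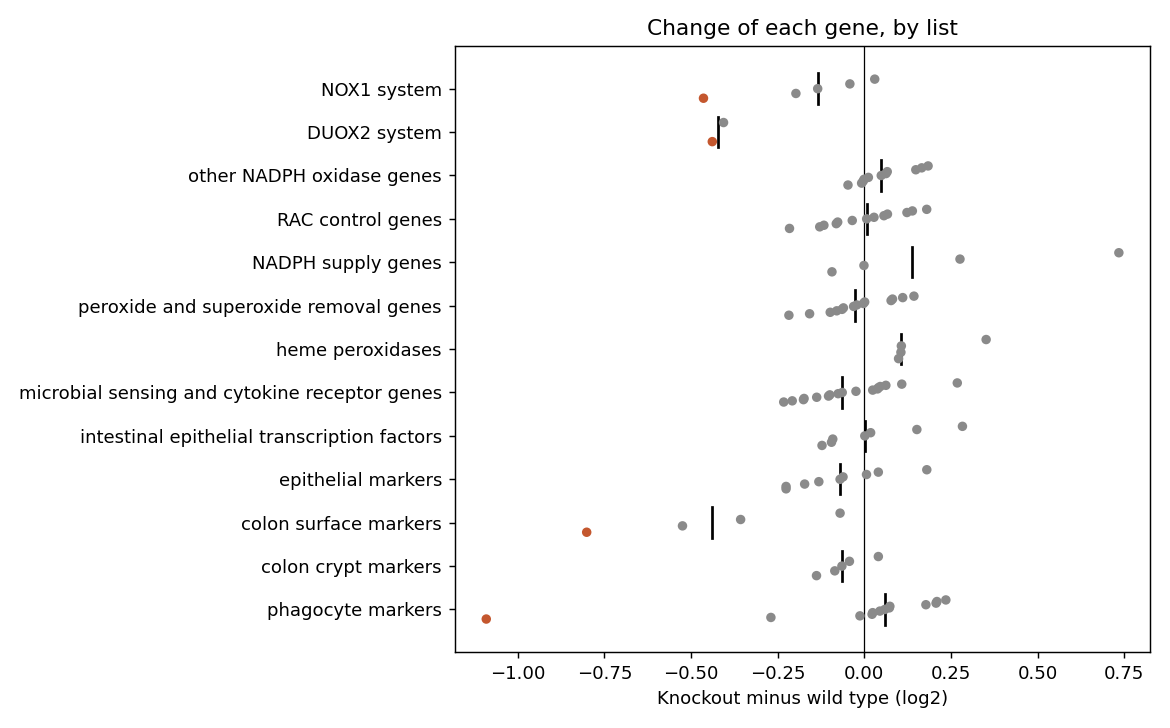
Knockout minus wild type (log2, horizontal axis) of each gene, grouped by list (vertical axis), from the oxidase systems at the top to marker lists at the bottom. Points are genes, orange where the adjusted p is under 0.05, and black bars are list medians. The DUOX2 system and the colon surface markers have medians of -0.42 and -0.44, and the other lists plotted lie between -0.13 and 0.14.

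Markers of colon surface cells, where DUOX2 is placed, had a median change of -0.44, against 0.019 for all genes. Of 4, 1 was called as lower, against 0.712% of all genes. It was the water channel gene Aqp8 (-0.80 ± 0.14, limma adjusted p = 0.032). Every knockout array lay below every wild type array in 3 of the 4, which was so for 7.98% of all genes. The chloride exchanger gene Slc26a3 (-0.36 ± 0.10) and the carbonic anhydrase gene Car4 (-0.52 ± 0.10, adjusted p = 0.051) had groups that did not overlap without being called, and Krt20 differed by -0.070 ± 0.097. The mean log2 value of the 4 was 11.92 to 12.21 on the wild type arrays and 11.50 to 11.71 on the knockout arrays. None of 5 crypt markers was called, with none at an unadjusted p under 0.05 and a mean of 8.04 to 8.16 against 7.92 to 8.19. The 9 epithelial markers had no call and 3 genes at an unadjusted p under 0.05, against 13.3% of all genes. Their mean was 12.08 to 12.16 against 12.02 to 12.07, and their median change was -0.070, with 6 genes lower and 3 higher. The lowest changes were those of Epcam and Cdh1, each at -0.23 ± 0.058, and the highest was that of Krt18, at 0.18 ± 0.081. In whole epithelium fewer cells of a type and less RNA per cell cannot be told apart, and the part of the surface markers in the values of Nox1 and Duox2 was not tested.

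Of the 13 phagocyte markers, which bear on Cyba because phagocytes share it, 1 was called, against 1.63% of all genes. It was Ly6g (-1.09 ± 0.15, adjusted p = 0.014), at 11.75 to 12.15 in wild type, and it belongs to a family of similar genes that its probe set may also read. The 12 others had a mean of 5.31 to 5.36 in wild type and 5.34 to 5.45 in the knockout, below the array median in both. None of 4 Hox genes of the distal colon was called, with 1, Hoxb13, at an unadjusted p under 0.05 (-0.20 ± 0.087, adjusted p = 0.37) and overlapping groups.

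Among 9660 genes brighter than the median gene, those whose centred profile over the 6 arrays lay closest to Nox1 were Muc4, Ifi30 and Rdh11, with root mean square differences of 0.050, 0.053 and 0.056 on the log2 scale. Closest to Duox2 were Kyat1, Smad6 and Klb, at 0.033, 0.038 and 0.055. Duoxa2 lay at 0.12 from Duox2, with 137 of the 9660 genes closer, and Nox1 and Duox2 lay at 0.14 from each other. Of Nox1's own partners Cyba was nearest, at 0.15, with 315 genes closer, and Rac1 farthest, at 0.26, with 5223 genes closer. These distances order profiles over 6 arrays that differ by genotype and carry no test.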

How the data were processed

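The deposited values are log2 expression levels per probe set, for which the submitters' processing notes name RMA. That method subtracts background, brings the arrays to a common distribution and combines the probes of a set. That the scale is log2 follows from the values. Software version and genome build: not given in the sources used here. Of 35556 probe sets, 21789 named 1 gene, 1621 several and 12146 none in the platform annotation, and only the first were used. Symbols were updated through RefSeq, and the probe set of highest mean stood for its gene, giving 19936 genes with no filter on dim ones.

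The knockout was set against wild type in limma 3.58.1 (R 4.3.3), with lmFit, eBayes and a model of genotype alone. Tests were two-sided with Benjamini-Hochberg adjustment over all genes, and a gene was called under 0.05. Intervals use the moderated t distribution. Differences between members were compared by exact permutation. The fit was tested on simulated data with independent normal noise, which real arrays may not follow. Each gene's noise had the SD that limma had already moderated, and 200 genes were changed. On these data the fit called 85% of log2 changes of 0.5 and 100% of those of 1, and 6.09% of its calls were false. Genes with a wider spread may be called less often. The number of arrays limits precision, and scan dates were not used.

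Members and lists were chosen with earlier results of these data known. Lists name textbook genes, and genes without a single-gene probe set were not analysed here. Named genes are the 7 members, Sel1l, the called genes of each pathway list or else its smallest p, and the 3 profiles closest to Nox1 and to Duox2 outside the members and predicted genes. Marker genes, Duox1, Cybb, Nox3, Ncf4, Tlr2, Ifngr1, Nod1 and Il13ra1 were named after their values were seen. Alternatives were a replicate block, median centring or quantile normalization, a filter on the dimmest 25% or 50%, a variance trend with intensity, a robust prior, array weights, the mean of probe sets and each array left out.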

Additional observations from a re-analysis of the deposited data

How the results depend on the processing

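Each of the 7 oxidase genes kept the sign of its change under all 15 alternatives. Several of these could alter only the SE and p of these genes, not the estimate. They were the replicate block, the filters on dim genes, the intensity trend, the robust prior and the mean of probe sets. Rac1 ran only from 0.0022 to 0.053, so its sign says little. Nox1 was called in 8 of the 9 alternatives that kept all arrays and Duox2 in 9 of 9. No oxidase gene was called with any array left out, so the count of 2 became 0 in all 6 such fits, and the count over all genes, 325, ran from 69 to 303. In these fits Sel1l differed by -0.87 to -0.67. The count over all genes was 598 without the dimmest 50% of genes and 614 with an intensity trend. With these 2 settings Me1, Lpo and Myd88 were called, 1 in each of their lists, and without an array the count of the NADPH supply list ran from 0 to 2. The shift of Duox2 against Duoxa2 ran from -0.13 (without wild type array 2) to 0.044 (without wild type array 1), and that of Nox1 against Duox2 from -0.16 (without knockout array 1) to 0.082 (without knockout array 2), and neither had passed. Same-numbered arrays of the 2 genotypes had deviations that correlated at -0.10, 0.15 and 0.15 across genes. For arrays of different numbers the correlations ran from -0.26 to 0.12. With 3 arrays per genotype these values cannot settle whether the arrays were paired. The labels name no pairing, so the numbers were not taken as pairs in the main fit. With the replicate block the count of oxidase genes called was 1, Duox2 (adjusted p = 0.040), Nox1 had an adjusted p of 0.065, and 217 genes were called in all. The causes of these changes were not tested. Genes near or below the array median, most phagocyte oxidase genes among them, may be limited by signal over background, which was not tested.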
